A study of Mus musculus with 28 samples.

Results

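The CXC chemokines that attract neutrophils, their receptor and the related platelet chemokine Pf4 were followed across leukocytes sorted from 2 mouse tumour models. The set was chosen by name, with earlier results of these data known. It holds 7 genes, Cxcl1, Cxcl2, Cxcl3, Cxcl5, Pf4, Ppbp and Cxcr2, of 17097 genes measured. A single probe set named each of 6 of them, and no probe set naming Cxcl3 alone was found, so Cxcl3 was not analysed here. RNA came from CD45+ cells, that is haematopoietic cells, isolated by flow sorting from implanted tumours of 2 established lines, the melanoma B16.F10 and the colon carcinoma MC38. Each of 28 arrays belonged to 1 of 12 groups made by tumour, day and host genotype. Control hosts were Foxp3Cre-YFP mice, which carry Cre recombinase and a yellow fluorescent protein under Foxp3, the gene that defines regulatory T cells. The other hosts were Nrp1L/LFoxp3Cre-YFP mice, which carry the same Cre and YFP allele and loxP-flanked Nrp1, so that Nrp1, a co-receptor for semaphorins and VEGF, is lost where Foxp3 is expressed. Leukocytes of B16 came from an early time, day 12 and day 18, and those of MC38 from days 6, 12 and 18. The early B16 time is day 8 in the sample titles and day 6 in the source names. B16 at day 18 and MC38 at day 12 had 3 arrays in each genotype, and the other groups had 2. The labels do not say whether an array held cells of 1 mouse or of several, nor the age of the mice, so p-values reflect only how far these arrays scatter, which may be technical.

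Chemokines of the CXC family are small secreted proteins that guide leukocytes along a gradient. Those with a Glu-Leu-Arg motif before the first cysteine, here Cxcl1, Cxcl2, Cxcl3, Cxcl5 and the processed product of Ppbp, bind Cxcr2 and draw neutrophils out of blood into tissue. Cxcl1 and Cxcl2 are made by macrophages, neutrophils, stroma and tumour cells within hours of stimulation by interleukin-1, TNF or microbial ligands, through NF-kB. Pf4 and Ppbp are stored in platelet granules and are classical products of megakaryocytes; Pf4 lacks the motif and does not signal through Cxcr2, and its transcript is also found in some tissue macrophages. The genes for the ligands lie side by side on mouse chromosome 5, and Cxcr2 lies on chromosome 1.

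The 100 bases before the annotated start of the genes that moved together are shown because they display what the members share and what they do not. They are RefSeq sequences of build GRCm38.p6, on the plus strand, which is the strand of each gene, and 6 of the 7 genes had a promoter window. Capitals mark the letters GGGAATTTC, a match to the NF-kB binding motif, and a TATA-like motif, which reads TATAAAA at Ppbp, while at both Cxcl1 and Cxcl2 it reads CATAAAA. Cxcl1 spans chr5:90891145-90891244, Cxcl2 chr5:90903799-90903898, Ppbp chr5:90768418-90768517 and Pf4 chr5:90772335-90772434.
Cxcl1: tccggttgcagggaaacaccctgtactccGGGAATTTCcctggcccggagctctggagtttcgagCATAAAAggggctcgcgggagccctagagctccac
Cxcl2: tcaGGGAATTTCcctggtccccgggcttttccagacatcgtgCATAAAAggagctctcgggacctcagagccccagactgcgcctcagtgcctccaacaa
Ppbp: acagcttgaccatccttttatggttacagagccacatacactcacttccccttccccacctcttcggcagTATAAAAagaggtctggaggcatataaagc
Pf4: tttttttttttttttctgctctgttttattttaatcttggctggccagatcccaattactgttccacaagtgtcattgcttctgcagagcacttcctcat

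GGGAATTTC ended 62 bases before the start of Cxcl1, 88 before that of Cxcl2 and 64 before that of Cxcl3. The TATA-like motif ended 28, 51 and 23 bases before these starts and 23 bases before the start of Ppbp. Neither motif was found in the windows of Pf4 or Cxcr2. The search covered 250 bases before each start. Searched on both strands, GGGAATTTC was in 77 of 32851 such windows (0.234%), and the TATA-like motif, searched on the gene's strand, was in 5.05%. The 2 motifs do not overlap, and they were picked with these sequences in view. A match describes letters and does not show that a factor binds.

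Array values were on a log2 scale, where 1 unit is a 2-fold difference, and the median of all values was 3.64. The arrays fell into 3 sets by the distribution of their values: B16 day 18 with MC38 day 12, MC38 days 6 and 18, and B16 early with day 12. Levels are therefore compared only within a set, and every genotype comparison lies within one. Nrp1 differed by -1.13 ± 0.12 (SE, log2) in B16 and by -0.54 ± 0.12 in MC38, lower in the Nrp1-deleted groups (limma, adjusted p = 2.25e-07 and 0.00267), in RNA that holds every CD45+ cell type. The highest correlation between any 2 arrays was 0.9946, so no array was a copy of another.

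Cxcl1, Cxcl2, Pf4 and Ppbp fell in leukocytes of B16 tumours from Nrp1-deleted mice, and none of the 4 passed the test in MC38. Averaged over the 3 B16 days, Pf4 fell 16.2-fold and Cxcl1 14.9-fold, which were the lowest and the second lowest differences of all 17097 genes (ranks 1 and 2). Ppbp fell 4.92-fold (rank 18) and Cxcl2 3.32-fold (rank 103). These are folds of array values, with no detection call used here, and where a group reads near or below the median of all values they can understate the difference in RNA. Thus 4 of the 6 measured members were called in B16, all lower, where 22.6% of all genes were called, 12.3% lower and 10.3% higher, at an adjusted p under 0.05. In MC38 0 of 6 were called by limma, and 0 had an unadjusted p under 0.05, where 19.3% of all genes were called, 12.3% lower and 6.97% higher.

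**Figure D1:**
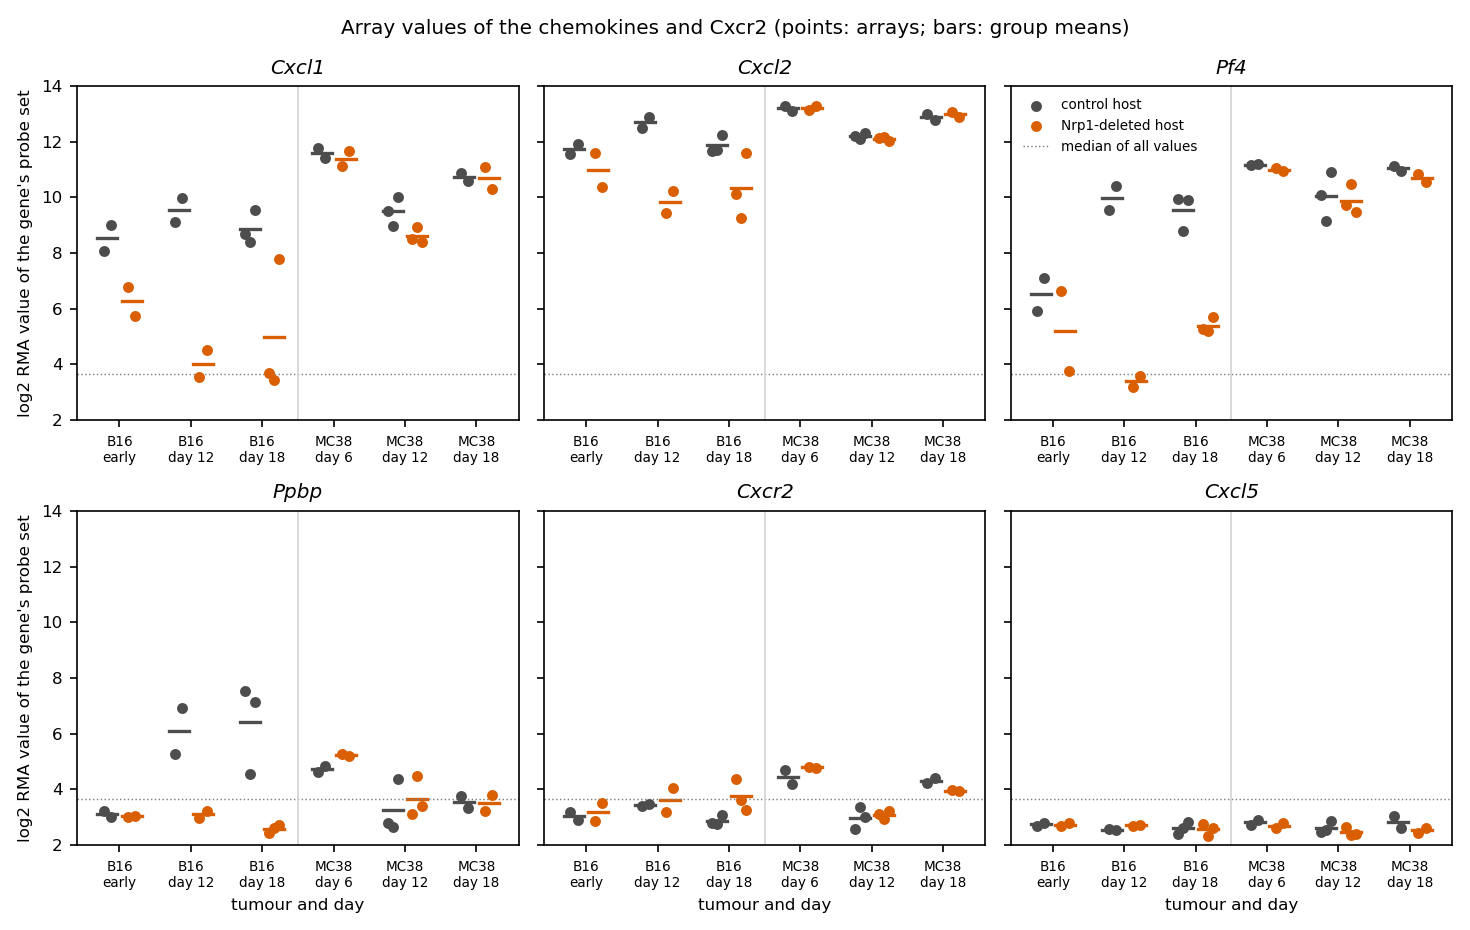
Log2 RMA values of the 6 measured genes on each of the 28 arrays, by tumour and day, with control hosts in grey, Nrp1-deleted hosts in orange, bars at group means and a dotted line at the median of all values (3.64). In B16 at days 12 and 18 the deleted arrays of Cxcl1, Cxcl2, Pf4 and Ppbp all sit below the control arrays, and Cxcl5 stays under 3.64 on all arrays. The share of all genes without overlap was not counted.

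Cxcl1, a ligand of Cxcr2 also known as KC, read 9.12 and 9.99 on the control arrays of B16 at day 12, against 3.53 and 4.53 on the deleted arrays. At day 18 the control arrays read 8.68, 8.41 and 9.55, and the deleted arrays 3.69, 3.46 and 7.78. At the early time the control arrays read 8.07 and 9.02, and the deleted arrays 6.80 and 5.75. The genotypes did not overlap at any B16 time, and replicate 3 of the deleted group at day 18 lay far above its 2 companions. The share of all genes without overlap was not counted, here or for the members below, and groups of 2 arrays can easily lie apart by scatter alone. Over the 3 B16 days the difference was -3.90 ± 0.45 (SE, limma, adjusted p = 5.91e-07). In MC38 the control arrays read 11.78 and 11.41 at day 6, 9.50, 8.98 and 10.002 at day 12, and 10.89 and 10.60 at day 18. The deleted arrays read 11.12 and 11.65, then 8.51, 8.93 and 8.40, then 11.08 and 10.30. The genotypes overlapped at days 6 and 18 and were 0.05 apart at day 12. The mean MC38 difference was -0.38, with a 95% confidence interval from -1.32 to 0.55 (adjusted p = 0.636).

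Cxcl2, also known as MIP-2 and a second ligand of Cxcr2, was the member closest to the top of the measuring range, with readings up to 13.29 where the highest value of any probe set was 13.8. Its control arrays in B16 read 12.50 and 12.90 at day 12, and the deleted arrays 9.42 and 10.24. At day 18 the control arrays read 11.68, 11.70 and 12.23, and the deleted arrays 10.13, 9.25 and 11.59. The early arrays read 11.57 and 11.93 in control hosts and 11.58 and 10.36 in deleted hosts. Genotypes were apart at days 12 and 18, by 0.09 at the nearest arrays of day 18, and overlapped at the early time. The difference over B16 was -1.73 ± 0.24 (SE, limma, adjusted p = 6.08e-06). In MC38 all arrays of Cxcl2 lay between 12.04 and 13.29, and the genotypes overlapped at each of the 3 days. The MC38 difference was 0.00, with an interval from -0.50 to 0.49 (adjusted p = 0.993).

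Pf4, platelet factor 4, had the largest mean genotype difference of the members in B16. In B16 at day 12 the control arrays read 9.56 and 10.39 and the deleted arrays 3.18 and 3.60, on both of which it lay below the median of all values. At day 18 the control arrays read 9.95, 8.79 and 9.90 and the deleted arrays 5.26, 5.19 and 5.70. At the early time the control arrays read 5.93 and 7.11 and the deleted arrays 6.63 and 3.78. The genotypes overlapped early and were at least 3.10 apart later. The difference over B16 was -4.02 ± 0.33 (SE, limma, adjusted p = 6.38e-09). In MC38 the control arrays read 11.16 and 11.20 at day 6, 10.10, 9.16 and 10.91 at day 12, and 11.14 and 10.96 at day 18. The deleted arrays read 11.07 and 10.93, then 9.72, 10.47 and 9.47, then 10.85 and 10.55. The deleted arrays were lower by 0.08 at day 6 and 0.11 at day 18 at their nearest, and the groups overlapped at day 12. The mean MC38 difference was -0.23, with an interval from -0.92 to 0.45 (adjusted p = 0.708).

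Ppbp, the precursor of the platelet chemokine CXCL7, lay above the median of all values on every control array of B16 at the later days. Those arrays read 5.26 and 6.92 at day 12, where the deleted arrays read 2.97 and 3.23. At day 18 they read 7.53, 4.55 and 7.15, where the deleted arrays read 2.44, 2.60 and 2.70. All 4 early B16 arrays lay between 3.01 and 3.23. The genotypes were 2.03 apart at day 12 and 1.85 at day 18, and overlapped early. The difference over B16 was -2.30 ± 0.36 (SE, limma, adjusted p = 3.91e-05). In MC38 the control arrays read 4.61 and 4.85 at day 6, 2.79, 2.65 and 4.38 at day 12, and 3.74 and 3.34 at day 18. The deleted arrays read 5.28 and 5.21, then 3.13, 4.46 and 3.41, then 3.22 and 3.78. The deleted arrays were the higher ones at day 6, and the groups overlapped at days 12 and 18. The mean MC38 difference was 0.29, with an interval from -0.47 to 1.04 (adjusted p = 0.663).

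Cxcr2, the receptor through which these ligands reach neutrophils, read near the median of all values on most arrays, between 2.57 and 4.80. In B16 at day 18 the control arrays read 2.79, 2.76 and 3.09 and the deleted arrays 4.36, 3.62 and 3.25, so the receptor was higher where its ligands were lower, by 0.87 ± 0.25 (SE, limma, adjusted p = 0.0164). This call was lost without control replicate 1, control replicate 2 or deleted replicate 1 of that day, with adjusted p of 0.0541, 0.0577 and 0.144. The groups overlapped at the other B16 times. At day 12 Cxcr2 read 3.40 and 3.46 in control and 3.19 and 4.05 in deleted hosts, and early it read 3.19 and 2.91 in control and 2.88 and 3.50 in deleted hosts. Over the 3 B16 days the difference was 0.40 ± 0.17 and was not called (adjusted p = 0.0979); it was called without deleted replicate 3 of day 18, deleted replicate 1 of day 12 or early deleted replicate 1 (adjusted p = 0.0317, 0.0276 and 0.0473). The control arrays of MC38 read 4.71 and 4.19 at day 6, 2.57, 3.35 and 3.01 at day 12, and 4.22 and 4.41 at day 18, and the deleted arrays 4.80 and 4.78, then 3.13, 2.93 and 3.23, then 3.97 and 3.93. The deleted arrays lay above the controls at day 6, below them at day 18, and overlapped them at day 12. Its mean MC38 difference was 0.03, with an interval from -0.32 to 0.38 (adjusted p = 0.934). Cxcl5, an epithelial and stromal ligand of Cxcr2, lay between 2.33 and 3.02 on the 28 arrays, below the median of all values, and was called in no comparison.

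**Figure D2:**
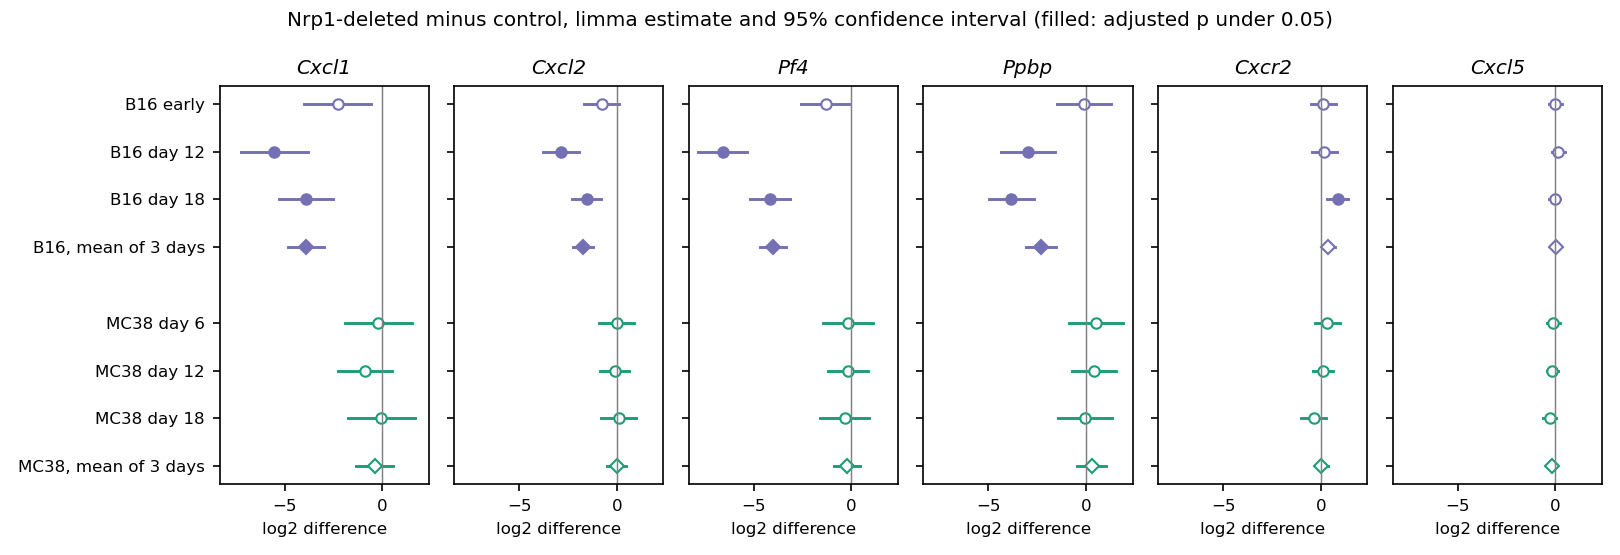
Log2 difference of Nrp1-deleted minus control hosts for each measured gene, per setting (circles) and averaged over the 3 days of a tumour (diamonds), with 95% confidence intervals and filled symbols at an adjusted p under 0.05. In B16, Cxcl1, Cxcl2, Pf4 and Ppbp have filled symbols at days 12 and 18, and no MC38 symbol is filled.

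Whether the effect of the deletion differed between the tumours was tested directly. B16 minus MC38 was -3.52 ± 0.64 (SE, log2) for Cxcl1, -1.73 ± 0.34 for Cxcl2, -3.79 ± 0.47 for Pf4 and -2.59 ± 0.52 for Ppbp. These 4 of 6 members passed the test (limma, adjusted p = 0.000479, 0.000984, 9.24e-06 and 0.00122), where 14% of all genes did. For Cxcr2 the difference between tumours was 0.37, with an interval from -0.12 to 0.86 (adjusted p = 0.348). Averaged over all 6 settings the same 4 members were called lower, at -2.14 for Cxcl1, -0.87 for Cxcl2, -2.13 for Pf4 and -1.01 for Ppbp, where 28.8% of all genes were called, 17.9% lower and 11% higher. Without the B16 day 18 arrays the mean difference of Ppbp over the remaining settings was -0.44 and was not called (limma, adjusted p = 0.172). No other setting was left out as a whole.

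By day, members were called in B16 at days 12 and 18. At the early time 0 of 6 members were called, where 0.445% of all genes were, and 2, Cxcl1 and Pf4, had an unadjusted p under 0.05 (limma). Cxcl1 then differed by -2.27 (adjusted p = 0.31), Cxcl2 by -0.78 (0.632), Pf4 by -1.32 (0.503) and Ppbp by -0.09 (0.989). The early difference of Pf4 rests on single arrays: without deleted replicate 1 it was -2.74 and was the 1 member called (limma, adjusted p = 0.00808), and without deleted replicate 2 it was 0.11 (adjusted p = 0.999). At day 12 the differences were -5.52 ± 0.83 (SE) for Cxcl1, -2.86 ± 0.44 for Cxcl2, -6.59 ± 0.61 for Pf4 and -2.99 ± 0.67 for Ppbp, the deleted arrays of Pf4 and Ppbp and 1 of Cxcl1 lying below the median of all values. These 4 of 6 were called (adjusted p = 2.79e-05, 3.39e-05, 2.52e-08 and 0.00239), where 17% of all genes were, and Ppbp was lost without control replicate 2 (-2.16, adjusted p = 0.0873) and was -3.82 without control replicate 1. At day 18 the differences were -3.91, -1.55, -4.16 and -3.83 (adjusted p = 0.000181, 0.00298, 1.4e-06 and 1.79e-05), and with Cxcr2 5 of 6 members were called, where 18.8% of all genes were. Without deleted replicate 3 of day 18, the array with the high Cxcl1 reading, Cxcl1 differed by -5.31 and Cxcl2 by -2.18, and Pf4 by -4.32 and Ppbp by -3.89. Cxcl1 differed by -3.26 and -3.15 without deleted replicates 1 and 2, and Ppbp by -4.76 without control replicate 2.

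Because the early and day 12 B16 arrays form 1 set, their levels can be compared. In control hosts Pf4 rose by 3.46 and Ppbp, from values below the median of all values, by 2.97 (log2) from the early time to day 12 (limma, adjusted p = 0.000235 and 0.00272), 2 of 6 members where 16.1% of all genes were called. The rise of Ppbp was 2.14 and was not called without control replicate 2 of day 12 (adjusted p = 0.0929), and was 3.80 without replicate 1. The rise of Pf4 was 2.87 and 4.05 without early control replicates 1 and 2 (adjusted p = 0.0124 and 0.000705). Cxcl1 and Cxcl2 differed by 1.01 and 0.94 and did not pass (adjusted p = 0.524 and 0.169). In deleted hosts Pf4 fell 3.52-fold (adjusted p = 0.0432), 1 of 6 members where 16.2% of all genes were called, and Cxcl1 (-2.24, adjusted p = 0.0703) and Cxcl2 (-1.14, adjusted p = 0.083) did not pass. The fall of Pf4 rests on single arrays: without early deleted replicate 1 it was -0.39 (adjusted p = 0.793), and it was not called without day 12 deleted replicate 1 (0.223) or 2 (0.0951). Without early deleted replicate 2 it was -3.24 (adjusted p = 0.000551), and Cxcl2 was called as well (-1.75, adjusted p = 0.0242). Ppbp in deleted hosts differed by 0.07 (adjusted p = 0.971).

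The change in the genotype difference from early to day 12 was -5.27 ± 0.86 (SE) for Pf4 and -2.08 ± 0.62 for Cxcl2 (limma, adjusted p = 0.000329 and 0.0451), 2 of 6 members where 6.29% of all genes were called. For Cxcl1 it was -3.25 ± 1.17 and for Ppbp -2.90 ± 0.95, and neither passed (adjusted p = 0.111 and 0.0712). The call of Cxcl2 was lost without any 1 of 6 of the 8 arrays, the exceptions being deleted replicate 2 of day 12 and of the early time, and Ppbp was called without control replicate 1 of day 12 (adjusted p = 0.036). Pf4 was called without each of the 8 arrays, but its value ranged from -3.85 without early deleted replicate 1 to -6.70 without early deleted replicate 2, with -4.68 and -5.87 without early control replicates 1 and 2. Cxcl2 was -1.47 and -2.69 without early deleted replicates 1 and 2 (adjusted p = 0.269 and 0.0112). In MC38 0 of 6 members were called at day 6, 12 or 18, and 0 had an unadjusted p under 0.05, where 2.97%, 8.59% and 5.36% of all genes were called. From day 6 to day 18 of MC38, 0 of 6 were called in control hosts (8.94% of all genes), in deleted hosts (1.94%) or for a change of the genotype difference (0.0819%). Of these, 2 in deleted hosts had an unadjusted p under 0.05 (limma), Ppbp at -1.74 and Cxcr2 at -0.84 (adjusted p = 0.229 and 0.2).

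Cxcl1, Cxcl2 and Pf4 ranked the 4 groups of the early and day 12 B16 set alike. In the set of B16 early and day 12, Cxcl1 ran from 9.56 ± 0.62 (SD, n = 2) in day 12 controls through 8.55 ± 0.67 in early controls and 6.27 ± 0.74 in early deleted hosts to 4.03 ± 0.71 in day 12 deleted hosts. Cxcl2 kept that order, from 12.70 ± 0.28 and 11.75 ± 0.26 to 10.97 ± 0.87 and 9.83 ± 0.58. Pf4 did too, from 9.98 ± 0.59 and 6.52 ± 0.84 to 5.20 ± 2.01 and 3.39 ± 0.30, and for both Cxcl2 and Pf4 the 2 middle groups overlapped. Ppbp stood at 6.09 ± 1.17 in day 12 controls and at 3.03 to 3.12 in the other 3 groups. In the set of MC38 days 6 and 18, Cxcl1 lay between 10.69 and 11.59, Cxcl2 between 12.89 and 13.21 and Pf4 between 10.70 and 11.18, and day 6 and day 18 did not differ by the test. In the set that joins B16 day 18 and MC38 day 12, Cxcl1 read 9.50 ± 0.51 and 8.61 ± 0.28 in MC38 control and deleted hosts, 8.88 ± 0.60 in B16 controls and 4.97 ± 2.43 in B16 deleted hosts (n = 3 each). Pf4 there read 10.05 ± 0.88, 9.89 ± 0.52, 9.55 ± 0.65 and 5.38 ± 0.27, so the B16 deleted group stood apart below 3 groups whose arrays overlapped. Ppbp read 6.41 ± 1.62 in B16 day 18 controls and 3.27 ± 0.96 in MC38 day 12 controls, whose nearest arrays were 4.55 and 4.38. Tumour and day differ together in this set, so their parts in such differences cannot be told apart.

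None of the measured genes that flank the members on chromosome 5 was called lower in B16, but most read near background, where a fall is hard to see. Afm, Albfm1 and Epgn lay below the median of all values in every group mean, and Rassf6 and Ereg reached only 3.71 and 3.68. The highest group means of Afp and Mthfd2l were 4.62 and 5.74. In order along the chromosome the neighbourhood runs Afp, Afm, Albfm1, Rassf6, Cxcl5, Ppbp, Pf4, Cxcl3, Cxcl15, Cxcl1, Cxcl2, Mthfd2l, Epgn, Ereg and Areg. Within the cluster, Cxcl15, which lies between the pairs that fell, differed by 0.20 ± 0.10 in B16 (limma, adjusted p = 0.184) and stayed below the median of all values in every group mean. Rassf6, on one side, was higher by 0.44 ± 0.15 (adjusted p = 0.0373), and Mthfd2l, on the other, differed by 0.17 ± 0.13 (adjusted p = 0.431). In MC38 Mthfd2l was the neighbour that was called, at -0.74 ± 0.13 (adjusted p = 0.000256). Thus called falls in B16 lay at Ppbp, Pf4, Cxcl1 and Cxcl2, with Cxcl5 (0.03) and Cxcl15 beside and between them near background.

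**Figure D3:**
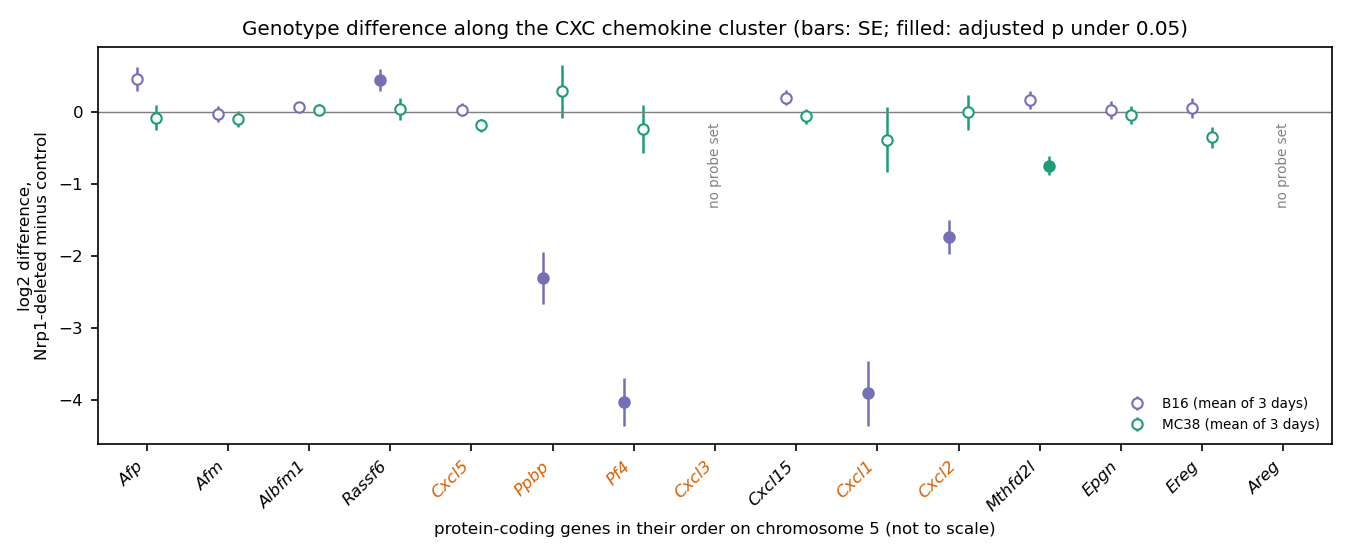
Log2 difference of Nrp1-deleted minus control hosts, averaged over the 3 days of B16 (purple) and MC38 (green), for genes in their order on chromosome 5, with SE bars, filled symbols at an adjusted p under 0.05 and members named in orange; spacing is not to scale and 2 genes had no probe set. In B16 the filled points below 0 are Ppbp, Pf4, Cxcl1 and Cxcl2, and Cxcl15 between them lies at 0.20.

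Other genes with the NF-kB motif of the printed promoters were looked at in the same fit. Of 76 genes whose 250-base window holds GGGAATTTC, 33 were measured, 2 of them Cxcl1 and Cxcl2. Of the 31 others, 6 were lower and 2 higher in B16, where 12.3% of all genes were called lower and 10.3% higher. The median difference of these others was -0.04, where the median of all genes was 0.01. Pf4 and Ppbp, whose windows lack these letters, fell with Cxcl1 and Cxcl2.

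Genes whose array values followed each member most closely were ranked by Pearson's r over the 28 arrays, after the mean of each of the 6 settings was taken off, among 11107 genes. All genes of an array share its cell mixture and its amplified RNA, so r is a description. The genotype difference was left in, so genes that differ alike between genotypes also run together. Each gene named below for the 4 chemokines that fell was itself called lower in B16, and those named for Cxcr2 were called higher. Cxcl1 ran with Cxcl2 (r = 0.965), Pdpn, the gene for podoplanin (0.964), and Cd14, the co-receptor for lipopolysaccharide (0.962). Cxcl2 ran with Cd14 (0.993), Trem1, an activating receptor of neutrophils and monocytes (0.977), and Il1b, the cytokine interleukin-1 beta (0.969). Pf4 ran with Snx8 (0.981), Parvb (0.965) and Plekho1 (0.964). Ppbp ran with Stab1, a scavenger receptor of tissue macrophages (0.895), Hebp1 (0.880) and Gas6, a ligand for TAM receptors (0.874). Cxcr2 ran less closely, with Slc24a3 (0.803), Ptger3 (0.763) and Csrp3 (0.756). Among the members, r was 0.844 for Pf4 with Ppbp and 0.900 for Pf4 with Cxcl1, and between -0.55 and -0.45 for Cxcr2 with each of the 4 chemokines that fell in B16. In the 14 MC38 arrays alone r fell to 0.802 for Cxcl1 with Cxcl2, 0.650 for Pf4 with Cxcl1 and 0.130 for Ppbp with Cxcl1. For the other genes named with these chemokines it ran from 0.375 (Ppbp with Stab1) to 0.899 (Cxcl1 with Pdpn).

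Of the other CXC chemokines, most did not pass the test averaged over the 3 B16 days, and more did at day 12. Of 9 measured in B16, 2 were lower and 0 higher, where 12.3% of all genes were lower and 10.3% higher, with a median difference of -0.19. By day, 4 of 9 were lower at day 12, Cxcl9 (-1.23), Cxcl10 (-1.68), Cxcl11 (-1.33) and Cxcl16 (-2.75), where 17% of all genes were called. At day 18 Cxcl14 (-1.11) and Cxcl16 (-1.31) were lower and Cxcl9 higher (0.75), where 18.8% of all genes were called. Over the 3 days Cxcl16, a ligand of Cxcr6, fell by 1.63 ± 0.13 (SE, limma, adjusted p = 6.82e-09), and Cxcl10, an interferon-induced ligand of Cxcr3, fell by 0.49 ± 0.10 (adjusted p = 0.000425). In MC38 1 of 9, Cxcl13, was called, at -0.32 (limma, adjusted p = 0.0231), where 19.3% of all genes were called. Of 4 other receptors measured, Cxcr6 and Cxcr3, receptors of activated T cells, were higher in B16 by 1.25 and 0.67 (adjusted p = 0.00286 and 0.00343) and in MC38 by 1.22 and 1.06 (adjusted p = 0.00487 and 5.82e-05). The test of the difference between tumours called 0 of these 4 receptors, where 14% of all genes were called.

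In a list that joins inducers of such chemokines, receptors and NF-kB feedback genes, the interleukin-1 genes were lower and some other genes higher. Of 12 such genes measured in B16, 2 were lower and 3 higher, where 12.3% of all genes were lower and 10.3% higher, with a median of -0.29. Il1b fell 2.84-fold and Il1a 2.02-fold (limma, adjusted p = 3.19e-05 and 0.00645). Il6 rose by 1.18 ± 0.27 (adjusted p = 0.00173), and Il17ra and Tnfaip3 rose by 0.30 and 0.25. Tnf (-0.36, adjusted p = 0.194) and Nfkbia (-0.14, adjusted p = 0.237), a rapid NF-kB target, did not pass. In MC38 0 were lower and 4 higher, Il6 (1.67), Il17a (1.53), Tnfaip3 (0.28) and Il17ra (0.24), where 6.97% of all genes were higher. The test of the difference between tumours called 2 of 12, both lower in B16, where 14% of all genes were called.

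Markers of the cells these chemokines recruit, and of the cells that make them, moved in B16 as well. Of 13 measured neutrophil markers 7 were lower and 0 higher in B16, with a median of -0.83, where 12.3% of all genes were lower. For 10 of the 13 the highest group mean lay above the median of all values. At day 12, 6 were lower (median -2.19), where 17% of all genes were called. At day 18, 4 were lower (median -0.26), where 18.8% were called. Among the 7 were Il1r2 (-1.66, limma, adjusted p = 6.08e-07), the decoy interleukin-1 receptor, Csf3r (-0.83, adjusted p = 7.74e-06), the G-CSF receptor, and Trem3 (-1.44, adjusted p = 7.85e-06). S100a8 and S100a9, abundant calcium-binding proteins of neutrophils and monocytes, fell by 1.54 and 1.92 (adjusted p = 0.0289 and 0.00375). The granule genes Mpo, Elane, Camp and Ngp of immature neutrophils differed by 0.03, -0.05, -0.01 and 0.24 and did not pass. In MC38 0 were lower and 2 higher, Mmp8 (1.31) and Cd177 (1.22), where 6.97% of all genes were higher. The test of the difference between tumours called 7 of 13, all lower in B16, where 14% of all genes were called. Averaged over the list, neutrophil markers lay at 5.59 to 5.91 on the B16 day 12 control arrays and 4.17 to 4.46 on the deleted arrays, and at 4.28 to 4.40 on all 4 early arrays. At day 18 the deleted arrays read 4.50, 4.22 and 5.54, so replicate 3, the array with high Cxcl1 and Cxcl2, had the highest neutrophil mean as well, against 5.19 to 5.77 in controls.

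Of 9 platelet and megakaryocyte markers measured in B16, 1 was lower and 0 higher, where 12.3% of all genes were lower and 10.3% higher. The 1 was Vwf (-0.55, limma, adjusted p = 0.0224), which endothelium also makes, and the median of the list was -0.02. Itga2b, the platelet integrin alpha chain, differed by 0.37 (adjusted p = 0.157), Itgb3 by -0.26 (adjusted p = 0.395) and Gp9 by -0.02 (adjusted p = 0.937). The mean of the list lay between 3.58 and 3.95 on all 14 B16 arrays and between 3.67 and 4.13 on the MC38 arrays. These means are near the median of all values (3.64), where array values can understate a difference. Gp1bb stayed below the median of all values on every array.

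Macrophage markers fell with the chemokines. All 10 general macrophage markers were lower in B16, with a median of -1.80, among them Ms4a7 (-2.50), C1qc (-2.13), a complement component, and Cd68 (-1.65). Of 9 markers of tissue-resident macrophages 8 were lower, with the same median to 2 decimals, led by Mrc1, the mannose receptor (-3.59, adjusted p = 1.45e-08), Stab1 (-2.25, adjusted p = 1.93e-09) and F13a1 (-1.92, adjusted p = 1.25e-06). In MC38 0 of 10 and 1 of 9 were lower, and 12.3% of all genes were lower in each tumour. The general list averaged 9.78 to 9.79 on B16 day 12 control arrays and 6.16 to 6.70 on deleted arrays. At day 18 it averaged 8.12 on deleted replicate 3, the array with high Cxcl1 and Cxcl2, against 8.04 and 7.69 on the other deleted arrays. In bulk RNA fewer cells of a type and less RNA per cell cannot be told apart, so these data do not show which cells carried the change in the chemokines. Monocyte markers were lower for 3 of 5 in B16 (median -1.90) and higher for 3 of 5 in MC38 (median 0.78). Mast cell and basophil markers were higher for 6 of 10 in B16 (median 1.15), and T cell markers for 4 of 5 in both tumours. Of all genes, 10.3% were higher in B16 and 6.97% in MC38.

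Markers of the tumour cells were lower in B16 too, although the sort selected CD45+ cells. All 10 melanocytic markers were lower in B16, with a median of -1.67, among them Mitf (-1.49), Slc45a2 (-1.91) and Pmel (-1.66). The list averaged 6.74 to 6.92 on early control arrays and 6.61 to 7.43 on early deleted arrays, up to 7.18 in control and 5.01 to 5.85 in deleted hosts at day 12, and 9.31 to 9.98 in control and 5.68 to 6.75 in deleted hosts at day 18. Within groups, single arrays compared as follows. At day 18 deleted replicate 3, with high Cxcl1 and Cxcl2, had the lowest list mean of its group (5.68 against 6.75 and 6.57). Control replicate 2 had the highest (9.98) with the lowest Cxcl1 and Pf4. At day 12 replicate 2 of each genotype was higher for the list, Cxcl1, Cxcl2 and Pf4. Early, replicate 1 of each genotype was higher for the list, but for these 3 genes only in deleted hosts. On MC38 arrays the list lay between 3.45 and 3.75. Its part in the chemokine differences was not tested. Leaving out the day 18 arrays, where the list differed most, does not remove its difference, since 8 of its 10 genes were lower at day 12 (median -2.01). The B16 differences without those arrays were -3.90 for Cxcl1, -1.82 for Cxcl2, -3.95 for Pf4 and -1.54 for Ppbp (limma, adjusted p = 1.48e-08, 5.73e-07, 1.38e-06 and 0.00546). Genes of all leukocytes moved little: 4 of 5 were higher in B16, with a median of 0.15, Ptprc, the gene for CD45, by 0.20. Fibroblast markers were lower for 3 of 10 in B16 (median -0.12) and 4 of 10 in MC38 (median -0.30). Endothelial markers were lower for 1 of 8 in B16 and higher for 1 of 8 in MC38, and epithelial markers were higher for 1 of 6 in B16. Of all genes, 12.3% were lower and 10.3% higher in B16, and 12.3% lower and 6.97% higher in MC38.

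**Figure D4:**
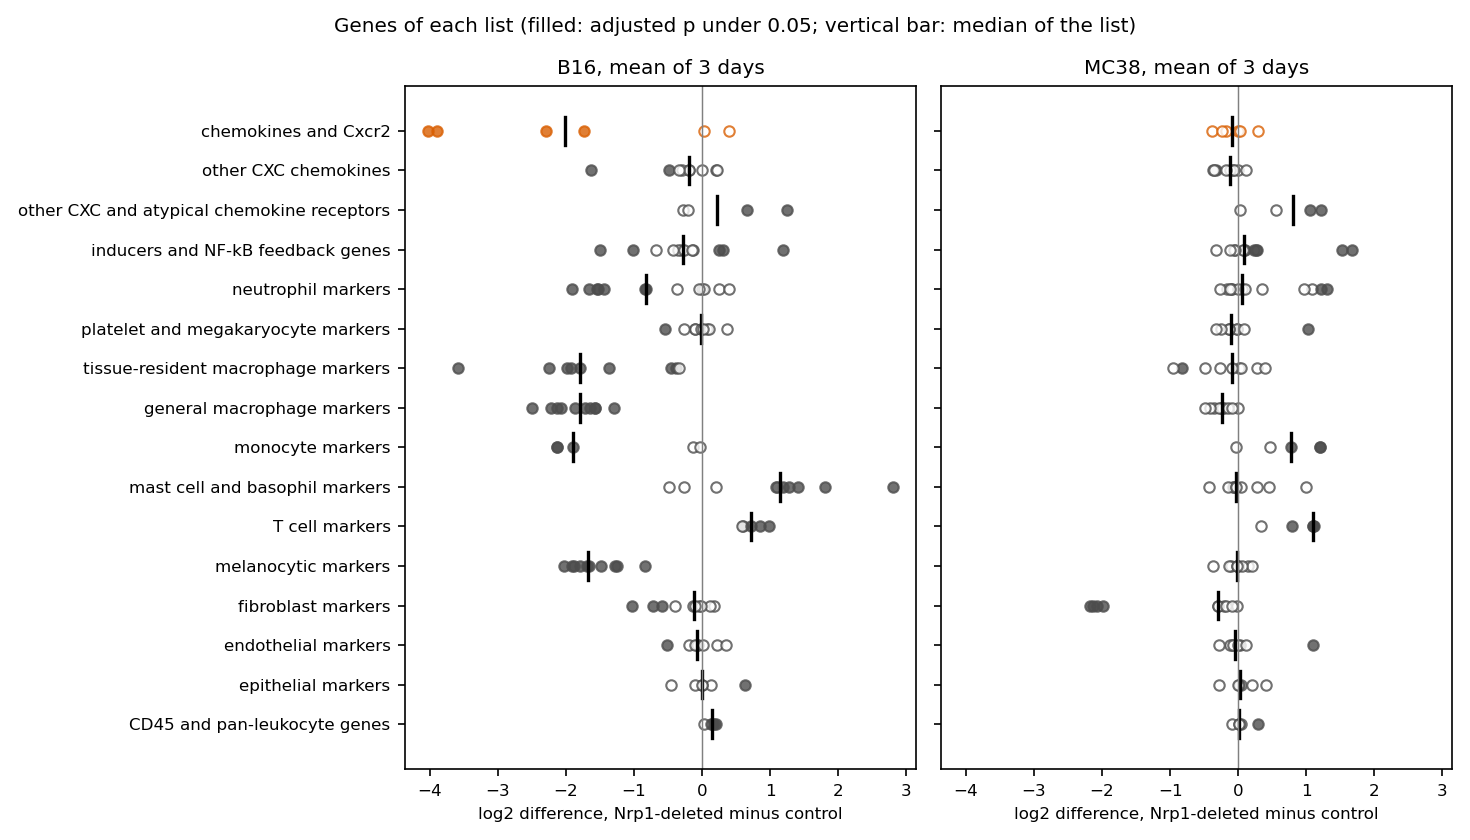
Log2 difference of Nrp1-deleted minus control hosts, averaged over the 3 days of B16 (left) and MC38 (right), for each gene of the listed marker and pathway groups, filled at an adjusted p under 0.05, with a vertical bar at the list median. In B16 the macrophage, monocyte, melanocytic and neutrophil lists have medians from -1.90 to -0.83. The platelet list, whose array means are near the median of all values, lies at -0.02.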

How the data were processed

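The deposited values are log2 expression values from Affymetrix arrays of total RNA; per the submitters' processing notes the authors used Partek 6.6 and RMA. Cells went straight from sorting to lysis and their RNA was amplified over more than 1 cycle, per the labels' protocols, which can distort low transcripts. Of 45141 probe sets, 28898 named 1 gene, 551 several and 15588 none here, and 104 were controls. Each of 17097 genes was represented by its brightest probe set over 28 arrays. A mean per group was fitted with limma 3.58.1 in R 4.3.3 (empirical Bayes with intensity trend, no filter, Benjamini-Hochberg adjustment over all genes, threshold 0.05, tests 2-sided). Differences are Nrp1-deleted minus control, and a tumour's mean weights its 3 days equally. No adjusted p was made over the members alone. The model was also tested on simulated data with known changes.

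The members and lists were chosen with earlier results of these data known. Named genes are the members, Nrp1, at most 3 genes a list with the smallest adjusted p in B16, and the 3 genes most like each member. Other listed genes, S100a8 and Cxcl9 among them, and the flanking genes were named after their values were seen. Replicate numbers were not treated as pairs in the main fit. Deviations of same-numbered arrays correlated between -0.276 and 0.196. Differently numbered arrays were not compared, so this does not exclude pairing. Alternatives were another choice of probe set, scaling, filter, variance model, sample set and block, each array left out in turn, and the B16 day 18 arrays left out together (a choice made after seeing the data). Promoter sequences are RefSeq's; Cxcl3 was not measured here.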

Additional observations from a re-analysis of the deposited data

Results flagged for a closer look

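The effect of the deletion differed between tumours for 4 members by the test of that difference (limma): B16 minus MC38 was -3.52 for Cxcl1, -1.73 for Cxcl2, -3.79 for Pf4 and -2.59 for Ppbp on the log2 scale. In B16 it also differed between day 12 and the early time for Pf4 (-5.27) and Cxcl2 (-2.08), and the latter call was lost without any 1 of 6 of the 8 arrays. The parts of macrophage, neutrophil and melanocytic RNA in these differences, which are given with the values of their markers, were not tested.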

How the results depend on the processing

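The 4 falls in B16 kept their call and direction under every alternative run, and the 4 differences between tumours with each array left out; 4 members were called between tumours under all other alternatives too. From early to day 12 in deleted B16 hosts (1 called), 0 were called with the mean over probe sets, with no intensity trend and with a robust trend, 3 with the replicate block, and 0 to 2 with 1 array left out. For the change of the genotype difference from early to day 12 (2 called), 1 was called with no intensity trend, a robust trend, the mean over probe sets, the 75th percentile as centre and cyclic loess, 3 with the replicate block, 4 in a fit of the compared groups only, and 1 to 2 with 1 array left out. A fit of the compared groups only called 3 members in B16 at day 18 (5 in all groups), 1 in MC38 at day 18 (0), 4 from early to day 12 in B16 controls (2), and 3 and 1 from day 6 to day 18 in MC38 control and deleted hosts (0 and 0), for the last of which the replicate block also called 1. Leaving out 1 array gave 1 to 2 for B16 controls over time and 0 to 1 for B16 early. With 1 array left out, 3 to 4 were called in B16 at day 12, 4 to 5 at day 18 and 4 to 5 over B16, and 3 were called over the 6 settings without the B16 day 18 arrays. The early B16 difference of Pf4 (-1.32) became 0.11 without deleted replicate 2. Among the means over a tumour's days, differences near 0 changed sign: Cxcr2 in MC38 was -0.00408 with centring on the 75th percentile and -0.0556 to 0.117 with 1 array left out, Cxcl2 in MC38 -0.0441 to 0.0344, and Cxcl5 in B16 -0.00214 to 0.0722. From early to day 12 in B16 controls the replicate block called 3, and it changed no other count. Groups of 2 arrays, amplification and values near background for Cxcl5, Cxcr2 and most of Ppbp limit precision, and the causes of these changes were not tested.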
